A study of Mus musculus with 2 samples.

Results

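The genes described here encode the hypoxia-inducible factor (HIF) subunits and the enzymes that make those proteins sensitive to oxygen. They are the alpha subunits Hif1a, Epas1 and Hif3a, the partner subunits Arnt and Arnt2, the hydroxylases Egln1, Egln2, Egln3 and Hif1an, and the ubiquitin ligase subunit Vhl. They were taken by name, and all 10 were found among the 22838 genes of the deposited table. Messenger RNA was measured in NIH3T3 cells, an established line of mouse embryonic fibroblasts, in 1 library from a culture exposed to ALA at 100 µM over 16 h and in 1 library from untreated cells. ALA is not spelled out in the labels; in heme research it means δ-aminolevulinic acid, a precursor of heme. No other agent or genetic change is named for either culture. The comparison asks whether the mRNAs of the HIF subunits themselves differed between the libraries, or only those of Egln1 and Egln3, which are known as feedback targets of HIF. Because each group is a single library, differences cannot be checked against replicates, and no test or p-value is given.

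HIF is a pair of proteins, an alpha subunit and an ARNT subunit, that binds DNA and activates genes of glycolysis, blood vessel growth and oxygen supply. When oxygen is present, the EGLN enzymes (also called PHD) use oxygen, iron and 2-oxoglutarate to hydroxylate prolines of the alpha subunit, and VHL then binds it and directs it to the proteasome. HIF1AN (also called FIH) hydroxylates an asparagine of the alpha subunit and so keeps coactivators away. Control of HIF is therefore known mainly at the level of the alpha protein, which an mRNA library does not measure, while EGLN1 and EGLN3 transcripts are raised by HIF and so close a feedback loop.

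Values are FPKM, reads scaled to transcript length and to library size, so levels can be set side by side between genes. Differences are given as a log2 ratio, log2((ALA FPKM + 1)/(untreated FPKM + 1)). The added 1 shrinks ratios of weakly expressed genes. Measured genes are those whose FPKM averaged 1 or more over both libraries, which left 10929 genes and 8 of the 10 genes described here; Epas1 and Hif3a were below. Among all measured genes the median log2 ratio was -0.02. Estimated depth was 31300000 reads in the ALA library and 23600000 in the untreated library. The fit behind these depths was weak, with a mean agreement of 0.259 with ALA and 0.246 untreated on a scale where 1 is perfect, so read numbers and the counting intervals (approximately 95%) made from them are approximate. The intervals do not cover variation between cultures. In these bulk libraries fewer cells of a type and less RNA per cell cannot be told apart. All 10 fibroblast markers were measured, with summed levels of 12026 FPKM with ALA and 13772 FPKM untreated and a median log2 ratio of -0.26. Of 7 macrophage and blood markers 3 were measured, with a sum over all 7 of 17.9 FPKM with ALA and 29.9 FPKM untreated. Their log2 ratios went both ways, with Cd14 at -1.31, Lyz2 at -0.61 and Aif1 at 0.32, and Cd68 at 0.96 and Ptprc at 0.36 among those below the measured level. Emr1 and Csf1r were below 0.05 FPKM with ALA and listed at 0 untreated. The part of such cells in the results was not tested. Of the endothelial markers 0 of 5 were measured, and Myod1, Myog, Gata1, Klf1 and Epcam were listed at 0 in both libraries. The muscle marker Des, the erythroid marker Epor and the epithelial marker Cdh1 were measured, with 1.12, 1.83 and 0.944 FPKM with ALA. The log2 ratios of these 3 genes were -0.48, -0.31 and -0.20. The keratin gene Krt14 had 114 FPKM with ALA and 84.2 FPKM untreated.

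Egln1 and Egln3 were both more than 2-fold lower in the ALA library, while the mRNAs of the main HIF subunits, Hif1a and Arnt, were within 1.2-fold of their untreated levels. Vhl was 1.54-fold lower, at the edge of the 1.5-fold threshold. Egln2 was 1.15-fold lower, and Hif1an and Arnt2 were 1.33-fold and 1.73-fold higher. The folds above are plain FPKM ratios, while calls use the log2 ratio with 1 added to each FPKM. By that ratio Arnt2 was at 0.56, just short of the 0.58 that 1.5-fold requires. At 1.5-fold on that scale, 3 of 8 measured genes were lower and 0 higher, beside 7.16% lower and 5.90% higher among all measured genes. At 2-fold, 2 were lower and 0 higher, beside 2.01% lower and 1.49% higher among all measured genes. Egln3 fell short of 2-fold with equal library totals, at -0.99, and with a pseudocount of 5, at -0.79.

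The gene-start windows of the hydroxylase genes Egln1, Egln3 and Egln2 and of Hif1a are shown because these are the 4 windows with the letters ACGTG, the core of the DNA element that HIF binds. Each runs from 250 bases before to 50 after the gene start, 5′ to 3′ along the gene, from RefSeq on GRCm38.p6, with ACGTG or its reverse complement in capitals (CACGTG where both overlap).
Egln1, chr8:124949205-124949504, minus strand: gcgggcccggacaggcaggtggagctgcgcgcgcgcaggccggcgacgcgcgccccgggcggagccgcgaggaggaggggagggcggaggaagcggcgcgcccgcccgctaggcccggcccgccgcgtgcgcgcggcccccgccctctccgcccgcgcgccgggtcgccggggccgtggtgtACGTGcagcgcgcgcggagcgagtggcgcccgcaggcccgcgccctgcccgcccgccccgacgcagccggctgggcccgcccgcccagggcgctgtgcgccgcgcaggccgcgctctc
Egln3, chr12:54203825-54204124, minus strand: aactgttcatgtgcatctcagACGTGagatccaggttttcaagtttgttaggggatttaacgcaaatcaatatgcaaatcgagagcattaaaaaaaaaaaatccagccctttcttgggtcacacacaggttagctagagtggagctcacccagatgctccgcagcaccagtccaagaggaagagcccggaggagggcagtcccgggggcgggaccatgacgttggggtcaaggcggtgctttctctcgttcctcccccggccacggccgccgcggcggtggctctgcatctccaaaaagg
Egln2, chr7:27166753-27167052, minus strand: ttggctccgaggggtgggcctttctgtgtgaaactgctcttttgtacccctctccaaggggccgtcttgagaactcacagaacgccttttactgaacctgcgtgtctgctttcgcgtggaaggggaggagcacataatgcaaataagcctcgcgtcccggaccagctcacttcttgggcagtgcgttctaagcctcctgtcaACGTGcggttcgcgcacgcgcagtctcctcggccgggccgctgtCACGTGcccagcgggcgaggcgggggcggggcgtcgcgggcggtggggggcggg
Hif1a, chr12:73907617-73907916, plus strand: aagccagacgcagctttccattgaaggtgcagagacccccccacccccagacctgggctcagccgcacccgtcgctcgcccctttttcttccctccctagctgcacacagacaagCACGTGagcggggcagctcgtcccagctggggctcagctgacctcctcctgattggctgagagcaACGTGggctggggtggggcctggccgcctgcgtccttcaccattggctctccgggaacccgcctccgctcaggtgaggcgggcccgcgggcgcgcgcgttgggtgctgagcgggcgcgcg

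The ACGTG letters do not separate the genes that differed from those that did not. Egln1 holds 1 match, beginning at -68 from the RefSeq gene start, and Egln3 holds 1 match at -229. The GENCODE start of Egln1, at 124949324, lies further upstream and places the Egln1 match inside the annotated transcript. Egln2 and Hif1a, with log2 ratios near -0.2, hold 3 matches each when both strands are counted. In each of these 2 genes a pair of the matches forms a single CACGTG, the palindromic E-box, at -4 in Egln2 and at -135 in Hif1a. Of 32851 such windows, 19.6% hold ACGTG and 7.15% hold CACGTG. The letters GCGTG, the other form of the core, occur in 32.4% of windows, and here in those of Egln1, Egln2, Hif3a and Arnt. Windows of Vhl, Hif1an and Arnt2 hold neither form, and 9 of the 10 genes had a window in the table. Hif1a also has an annotated start further upstream, whose window was not used here. A match is a description of letters only, and elements outside these windows were not searched.

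**Figure D1:**
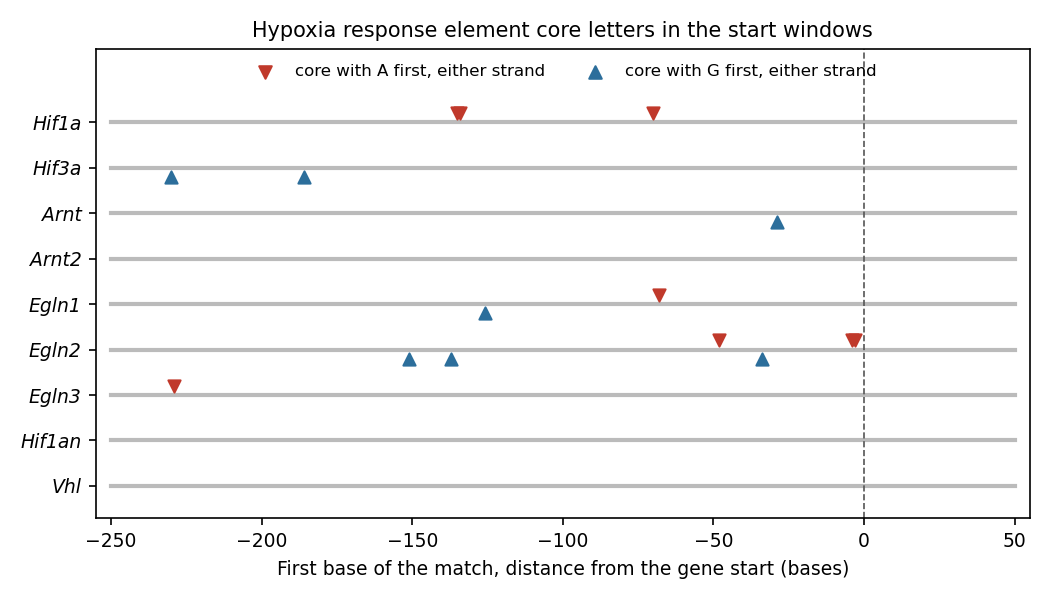
Positions of the hypoxia response element core letters in the first RefSeq start window of 9 genes, as distance of the match's first base from the gene start in bases (red, form with A first; blue, form with G first; either strand). Egln1 has 1 red match at -68 and Egln3 has 1 at -229, while Hif1a and Egln2 have 3 each and Vhl, Hif1an and Arnt2 show none of either form.

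Hif1a, which encodes the broadly expressed alpha subunit HIF-1α, had 56.4 FPKM in the ALA library and 65.2 FPKM in the untreated library. Its log2 ratio was -0.21, with a counting interval of -0.25 to -0.16. The difference is larger than counting error and lies well inside the spread of genes of like level, since the middle 95% of log2 ratios at 50 to 100 FPKM ran from -0.64 to 0.54. With equal library totals the log2 ratio of Hif1a was -0.13. The gene spans chromosome 12 from 73901375 to 73947530 on GRCm38 (plus strand). Other annotated genes, the antisense Gm15283 and Gm49321 on the same strand, cover 8.11% of its exon bases. Reads shared with Gm49321 cannot be separated by strand, and no strand setting is given for the libraries. Reads there therefore cannot be assigned with certainty.

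Epas1, which encodes HIF-2α, a form prominent in endothelium and in the cells that make erythropoietin, had 0.0985 FPKM with ALA and 0.121 FPKM untreated. This is about 17 reads with ALA and 16 untreated, and the counting intervals of 0.0574 to 0.158 FPKM with ALA and 0.0704 to 0.200 FPKM untreated overlap. Hif3a, whose splice forms include an inhibitor of HIF, was listed at 0 in both libraries. HIF-α mRNA in these cells was thus nearly all Hif1a, with 99.8% of the summed FPKM of the 3 alpha genes in each library. With so few reads, a moderate difference in Epas1 could not be told from counting error.

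Arnt encodes the constitutive HIF-1β subunit, which also partners the aryl hydrocarbon receptor. It had 31.0 FPKM with ALA and 32.8 FPKM untreated, for a log2 ratio of -0.08 (counting interval -0.14 to -0.01). With equal library totals it was 0.00 to 2 decimals. Its relative Arnt2, best known from neurons, was at a lower level, with 3.20 FPKM with ALA and 1.85 FPKM untreated. Arnt2 had the highest log2 ratio of the 8 measured genes, 0.56 with a counting interval of 0.42 to 0.70, just short of the 0.58 that 1.5-fold requires. That call depends on the settings: Arnt2 passed 1.5-fold with a pseudocount of 0.1, at 0.76, and with equal library totals, at 0.61. Its ratio lies inside the middle 95% of genes averaging 1 to 5 FPKM, which ran from -1.29 to 1.19. The sum of Arnt and Arnt2 was 34.2 FPKM with ALA and 34.6 FPKM untreated, of which Arnt2 made up 9.36% with ALA and 5.35% untreated.

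**Figure D2:**
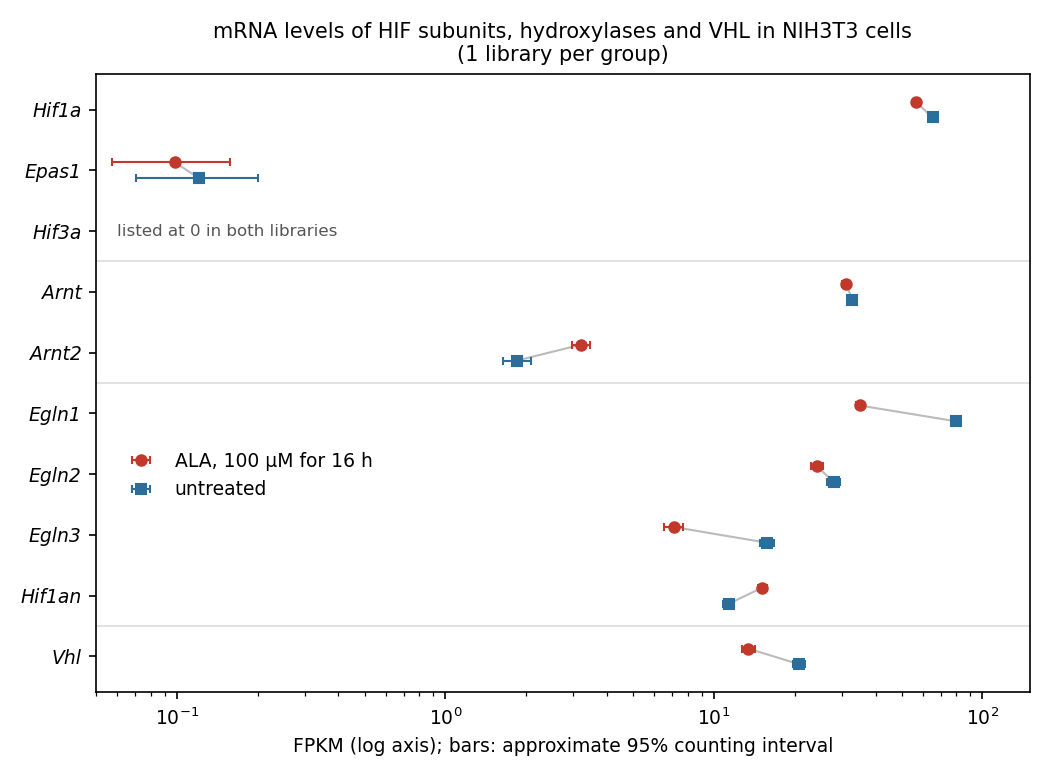
FPKM (log axis) of the HIF alpha subunits, ARNT subunits, hydroxylases and Vhl in the ALA library (red circles) and the untreated library (blue squares), with approximate 95% counting intervals as bars. Egln1 and Egln3 lie clearly further left with ALA, Hif1a and Arnt nearly coincide, and Epas1 is near 0.1 FPKM in both.

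Among the hydroxylases the 4 genes did not move together. Egln1 encodes PHD2, the main oxygen sensor of normally oxygenated cells, and had 34.9 FPKM with ALA and 79.6 FPKM untreated. The counting intervals of these levels, 33.8 to 36.0 FPKM with ALA and 77.7 to 81.5 FPKM untreated, are far apart. Egln1 was 2.28-fold lower, with a log2 ratio of -1.17 and a counting interval of -1.22 to -1.11. It ranked 128 from the lowest among the 10929 measured genes, so that 1.17% of them had a ratio as low. Of genes with a mean of 50 to 100 FPKM, 0.626% were 2-fold lower. Egln1 spans chromosome 8 from 124908587 to 124949324 (minus strand) in a single annotated transcript of 3594 bp with 0% of its sequence in other genes.

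Egln3 encodes PHD3, whose mRNA is low in many cells until HIF is active, and had 7.08 FPKM with ALA and 15.8 FPKM untreated, or about 590 reads with ALA and 992 untreated. It was 2.23-fold lower, and its log2 ratio was -1.06 (counting interval -1.19 to -0.92). It ranked 174 from the lowest, and the middle 95% of genes with a mean of 5 to 20 FPKM ran from -0.83 to 0.77. Of genes at that level, 1.65% were 2-fold lower. Egln3 spans chromosome 12 from 54178981 to 54203860 (minus strand), also with a single annotated transcript and 0% of its sequence in other genes. The 2 feedback targets stood in nearly the same proportion in both libraries, Egln1 being 4.93 times Egln3 with ALA and 5.03 times untreated.

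Egln2 encodes PHD1, a nuclear prolyl hydroxylase that is not known as a HIF target, and had 24.2 FPKM with ALA and 27.9 FPKM untreated. Its log2 ratio was -0.20, with a counting interval of -0.30 to -0.10, close to that of Hif1a. Hif1an, the gene of the asparaginyl hydroxylase, differed in the other direction, with 15.1 FPKM with ALA and 11.4 FPKM untreated. Its log2 ratio was 0.38 (counting interval 0.30 to 0.46), and 12.4% of measured genes had a ratio as high. Neither gene reached 1.5-fold, and both lie inside the middle 95% of genes of like level.

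The make-up of hydroxylase mRNA differed between the libraries. Summed over Egln1, Egln2 and Egln3, prolyl hydroxylase mRNA was 66.2 FPKM with ALA and 123 FPKM untreated, a log2 ratio of -0.89. Egln1 made up 52.8% of that sum with ALA and 64.6% untreated, and Egln2 36.5% with ALA and 22.6% untreated. Egln3 made up 10.7% with ALA and 12.8% untreated. Per Hif1a FPKM, Egln1 stood at 0.619 with ALA and 1.22 untreated. Hif1an was 2.14 times Egln3 with ALA and 0.719 times Egln3 untreated, so their order was reversed between the libraries.

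**Figure D3:**
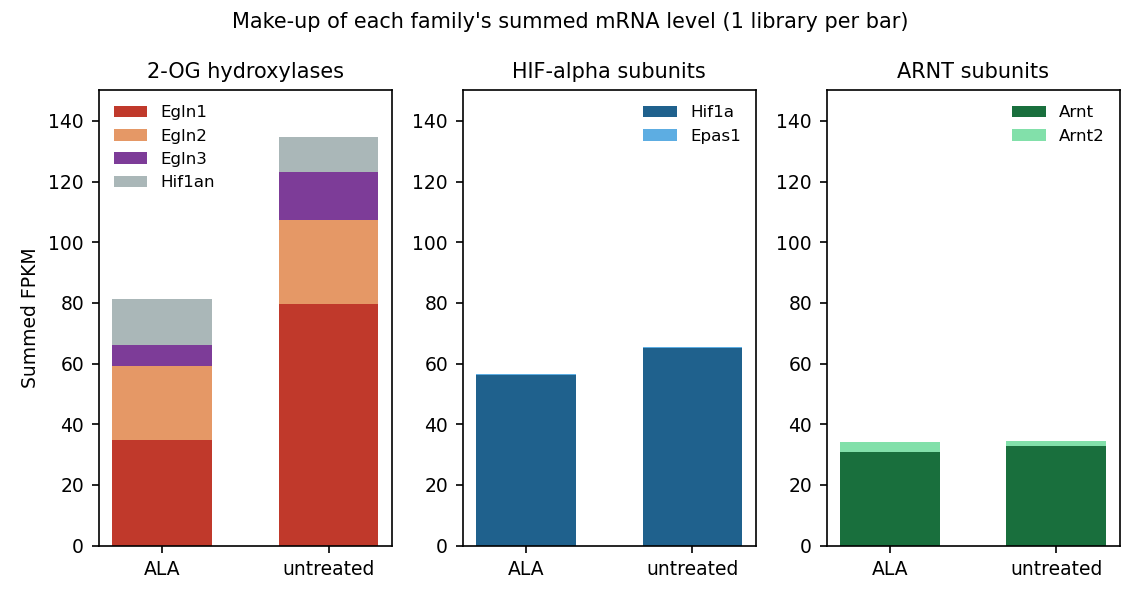
Summed FPKM of the hydroxylase genes, the HIF alpha genes and the ARNT genes, with the ALA library left of the untreated library in each panel and 1 library per bar. The hydroxylase bar reaches 81.4 FPKM with ALA and 135 FPKM untreated, mostly through Egln1, while the ARNT bars are nearly equal, at 34.2 FPKM with ALA and 34.6 FPKM untreated.

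Vhl encodes the subunit that recognises hydroxylated alpha protein, and had 13.4 FPKM with ALA and 20.8 FPKM untreated, or about 1175 reads with ALA and 1366 untreated. Its log2 ratio was -0.59, with a counting interval of -0.70 to -0.49, and 7.09% of measured genes had a ratio as low. The ratio lies inside the middle 95% of genes of like level. The 1.5-fold call of Vhl was lost with equal library totals, at -0.52, with the other scalings, at -0.58 and -0.57, and with a pseudocount of 5, at -0.48. Vhl lies on the plus strand of chromosome 6, from 113623959 to 113631633, and shares no exon bases with another annotated gene.

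Ordered by level, the ALA library ran Hif1a, Egln1, Arnt, Egln2, Hif1an, Vhl, Egln3, Arnt2, Epas1 and Hif3a. The untreated library ran Egln1, Hif1a, Arnt, Egln2, Vhl, Egln3, Hif1an, Arnt2, Epas1 and Hif3a. Egln1 thus stood above Hif1a in untreated cells and below it with ALA, and Hif1an stood above Vhl and Egln3 with ALA and below them in untreated cells. Counting intervals of neighbours in these orders did not overlap for any gene from Hif1a or Egln1 down to Epas1, but they cover counting error only, so the orders describe these 2 libraries. The median log2 ratio was -1.11 over Egln1 and Egln3 and -0.14 over the other 6 measured genes, a difference of -0.97. Egln1 and Egln3 were set apart as feedback targets with earlier results of these data known, so this difference is a description only. Against genes of like level, 2 of the 8 measured genes lay outside the middle 95%, and these were Egln1 and Egln3.

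**Figure D4:**
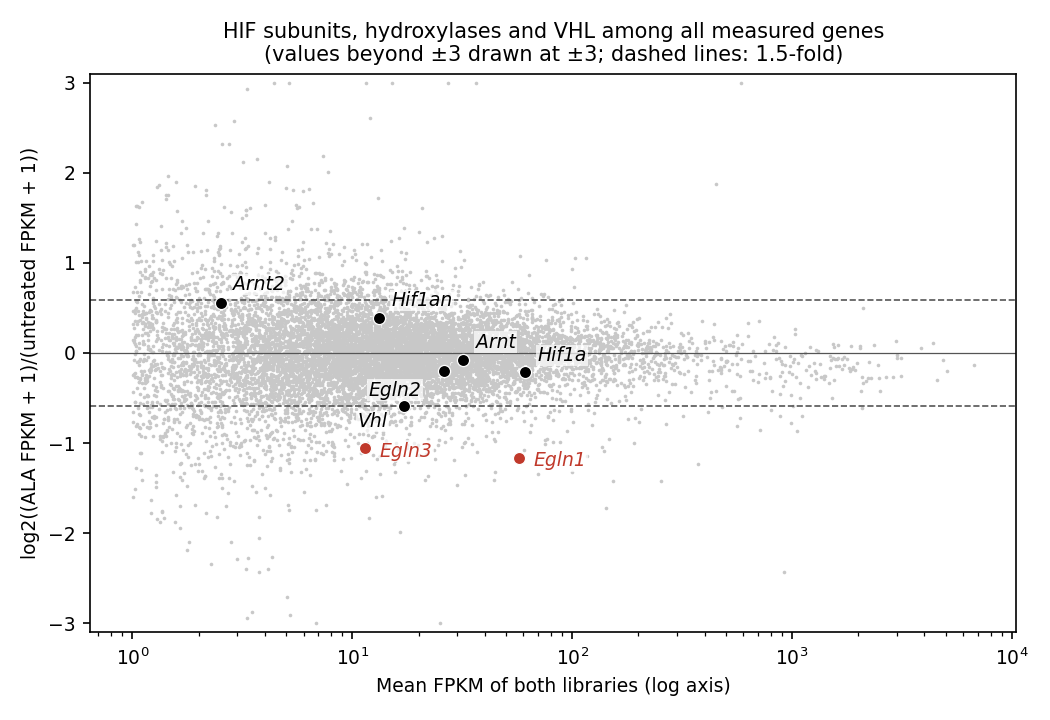
Log2 ratio of ALA over untreated against the mean FPKM of both libraries (log axis) for 10929 measured genes (grey), with Egln1 and Egln3 in red and the other 6 measured genes in black. Egln1 at -1.17 and Egln3 at -1.06 lie in the lower tail of the cloud of genes of like level. Vhl lies on the lower 1.5-fold line and Arnt2 just under the upper one.

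Other genes known as HIF targets were lower along with Egln1 and Egln3. Of 33 measured targets on 2 lists, 27 (81.8%) were at least 1.5-fold lower and 1 at least 1.5-fold higher, beside the 7.16% and 5.90% of all measured genes, and their median log2 ratio was -0.82. Both lists were drawn up with earlier results of these data known, so the shares describe them and are no independent support. Egln1 and Egln3 lay within the range of these targets, with 7 targets below Egln1 and 8 below Egln3. Among 14 measured glycolytic targets 12 were lower, with a median of -0.80. Pdk1, the kinase that shuts off pyruvate dehydrogenase, had 25.0 FPKM with ALA and 64.0 FPKM untreated, a log2 ratio of -1.32. Hexokinase Hk2 was at -1.23, the phosphofructokinase gene Pfkl at -1.18 and the glucose transporter gene Slc2a1 at -1.04. These 4 genes share at most 2.99% of their sequence or exon bases with other genes, but 7 of the 12 lower glycolytic targets share over 10%, among them Pgk1 with 68.1%, Pgam1 with 41.8% and Gapdh with 29.7% of their sequence, so their values are uncertain. Of the 6 glycolytic targets that share less, a split made after the values were seen, 5 were lower.

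Among 19 measured targets outside glycolysis 15 were lower and 1 higher, with a median of -0.87. Ero1l, an oxidase of the endoplasmic reticulum, had 83.2 FPKM with ALA and 225 FPKM untreated, a log2 ratio of -1.42. Ankrd37, Bnip3 and Higd1a were at -1.59, -1.42 and -1.34, but each shares more than 10% of its exon bases and sequence with other genes, so their values are uncertain. Of the 15 targets outside glycolysis that share less, 11 were lower. The transferrin receptor gene Tfrc, which also answers to cell iron, was the higher one, with 36.1 FPKM with ALA and 21.0 FPKM untreated. With a 2-fold threshold the lower counts were 4 of 14 glycolytic and 6 of 19 other targets, beside 2.01% of all measured genes.

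Among 48 measured members of the enzyme class to which the EGLN proteins belong, the iron and 2-oxoglutarate dioxygenases, 8 (16.7%) were at least 1.5-fold lower and 2 (4.17%) higher, beside 7.16% and 5.90% of all measured genes, with a median of -0.14. The collagen hydroxylase genes Plod2 and P4ha1, known as HIF targets, were at -0.93 and -0.87, with 27.6 and 67.0 FPKM with ALA against 53.4 and 123 FPKM untreated. Jmjd8 at -1.15 and the DNA repair enzyme gene Alkbh2 at 1.64 had the most extreme ratios, but other genes cover 39.3% and 29.5% of their exon bases. Over the 44 members that are on no target list, 5 were lower, or 11.4%, beside the 7.16% of all measured genes, and the median was -0.09. The count of 8 was 5 with equal library totals and 4 with a pseudocount of 5.

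Of 46 measured genes that act on HIF, are related to it or supply its hydroxylases, on the other 5 lists, 0 were at least 1.5-fold lower and 2 (4.35%) were higher. The background was 7.16% lower and 5.90% higher among all measured genes, so that the higher share is near it. In the VHL ubiquitin ligase the scaffold gene Cul2 was at 0.22, Tceb1, which encodes elongin C, at 0.33 and the RING subunit gene Rbx1 at -0.25. Nedd8, the modifier that activates the cullin, was at -0.13 and shares 18.4% of its sequence. Among HIF cofactors Cited1, a regulator that binds the coactivators CBP and p300, was the higher gene, with 2.82 FPKM with ALA and 0.518 FPKM untreated, while Ncoa2, Pkm and Ncoa1 were at 0.40, -0.37 and -0.35. Pkm shares 41.4% of its sequence with other genes.

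Among genes for turnover of the alpha subunits or VHL, Ube2s was the higher one, with 711 FPKM with ALA and 193 FPKM untreated, a log2 ratio of 1.87. Its ubiquitin-conjugating enzyme acts with the anaphase-promoting complex and is also known to target VHL protein. Siah2, a ligase for EGLN proteins, was at 0.45, and the deubiquitinase genes Usp33 and Usp28 were at 0.32 and -0.32, of which Usp33 shares 39.9% of its sequence. Enzymes that make or use 2-oxoglutarate, succinate and fumarate were at -0.39 (Idh3g) to 0.39 (Sdhc) over 14 genes, with Idh2 at 0.34 and Idh1 at -0.28. The 3 measured of 11 related bHLH-PAS factors differed by less than 1.5-fold, with Clock at -0.28, Ahr at -0.15 and Arntl at -0.14.

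**Figure D5:**
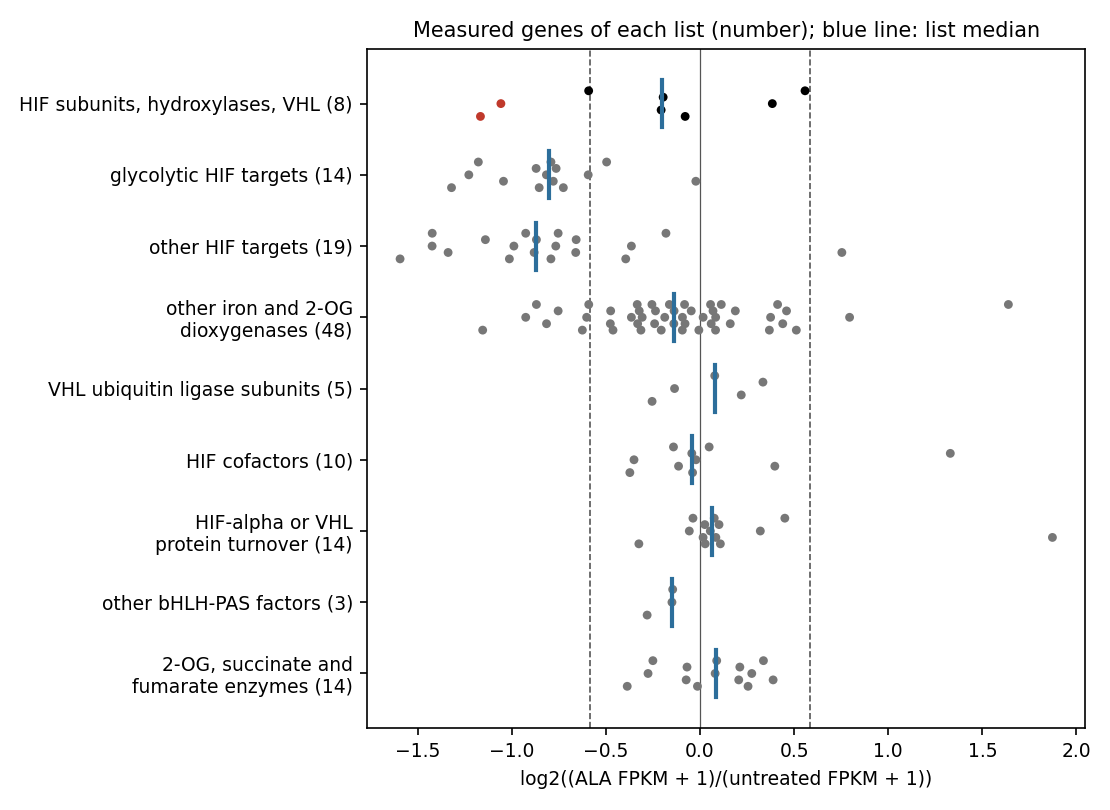
Log2 ratio of ALA over untreated for the measured genes of each list (number in brackets), with blue lines at list medians and dashed lines at 1.5-fold. Egln1 and Egln3 (red, top row) lie among the values of the HIF target lists, whose medians are -0.80 and -0.87, while the other 6 genes of the top row lie from -0.59 to 0.56.

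By the distance between log2(FPKM + 1) values over the 2 libraries, Dak, Il34 and Zfp524 were nearest to Egln3, with log2 ratios of -1.05, -0.99 and -1.03. Egln1 had few neighbours: l7Rn6 was nearest at a distance of 0.150 with a log2 ratio of -1.07, followed by Mgst1 and Imp3 at 0.320 and 0.337, with ratios of -0.73 and -0.75. For Hif1a, Col5a1, Eif3g and Polr2d were nearest, at 0.0305 to 0.0360, and 47 genes lay within a distance of 0.1. With 2 libraries such likeness says only that level and ratio are near each other.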

How the data were processed

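Messenger RNA was sequenced from NIH3T3 cells as single-end reads of 41 bp from TruSeq libraries, per the labels' protocols. The deposited values are FPKM per gene. FastQC 0.11.5, TopHat2 2.1.1, Cufflinks 2.2.1 and build mm10 are named in the submitters' processing notes; annotation, options, strand setting and scaling between libraries were not given in the sources used here. The authors' lower and upper bounds were equal in 100.0% of rows and carried no error.

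Ratios used a pseudocount of 1 and a filter at a mean of 1 FPKM, with calls at 1.5-fold (Python 3.11.15, pandas 2.3.3). FPKM are not counts, and with 1 library per group no test was run. Depth came from step sizes of the low FPKM values in single-transcript genes over 1500 bp, and the fit was weak. Multiples of a depth also give whole numbers of reads, so only the lowest well-fitting candidates were kept. Among those, 26600000 to 33100000 reads (ALA) and 21500000 to 23900000 (untreated) fitted nearly as well. These ranges therefore do not bound the depth from above. Intervals used the longest transcript. The code was tested on simulated data. Positions and overlaps came from GENCODE vM21 on GRCm38, the assembly that mm10 names (21563 of 22838 genes matched by symbol and place), and start windows from RefSeq. Windows of 8 of the 9 genes with one ended inside a GENCODE transcript of the gene in the same orientation; that of Hif1a did not.

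The genes and lists were chosen with earlier results of these data known. Named were all 10 genes, up to 4 genes of each of 8 lists by absolute log2 ratio, the 3 nearest genes of Hif1a, Egln1 and Egln3, and genes sharing exon bases; Tfrc and the flanking genes were named after their values were seen. Alternatives were pseudocounts of 0.1 and 5, 3 other scalings, no filter or 5 FPKM, 2-fold, a limit of 10% shared sequence, and sums with overlapping genes.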

Additional observations from a re-analysis of the deposited data

How the results depend on the processing

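No paired analysis was possible because each group had 1 library. Egln1 and Egln3 stayed at least 1.5-fold lower under every alternative run, with log2 ratios of -1.19 to -1.08 and -1.15 to -0.79. The scalings moved log2 ratios up by 0.01 to 0.08. With a pseudocount of 5, Egln1 was at -1.08, Egln3 at -0.79 and the difference between the medians at -0.81. With equal library totals Egln1 was at -1.09 and Egln3 at -0.99, short of 2-fold, and all measured genes were then 5.78% lower and 7.73% higher at 1.5-fold, against 7.16% and 5.90% as deposited. The count of lower genes among the 10 was 2 or 3, since Vhl lost its call with a pseudocount of 5, with each of the 3 other scalings and at 2-fold. The count of higher genes was 1 (Arnt2) with a pseudocount of 0.1 or equal library totals. At 2-fold the lower counts were 4 for glycolytic targets, 6 for other targets and 1 for dioxygenases. Leaving out genes with over 10% shared sequence, chosen after seeing the data, left 5 lower glycolytic and 11 lower other targets, with fewer genes counted. The dioxygenase count was 4 with a pseudocount of 5 and 5 with equal library totals. The 2 higher genes of the other lists became 1 with a pseudocount of 5 or a mean of at least 5 FPKM. No result changed sign. Summing Egln2 with Cyp2t4, listed at 0, gave -0.20; the partners of Hif1a and Arnt2 have no entry in the table used here, so their sums were not run. Depth limits Epas1, with about 17 reads with ALA and 16 untreated.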

Other observations

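Genes flanking Egln1, Egln2, Egln3 and Vhl were looked up after the values were seen. Sprtn, which ends 2.43 kb from Egln1, had 7.48 FPKM with ALA and 6.50 FPKM untreated, a log2 ratio of 0.18, and Tsnax on the other side was at 0.20. The nearest measured genes beside Egln3 are far away, at 442 kb (Sptssa, log2 ratio -0.12) and 1023 kb (Akap6, 0.66). Beside Vhl, the actin regulator gene Brk1 had 178 FPKM with ALA and 183 FPKM untreated, and Irak2 was at 0.27. Next to Egln2, Rab4b, a gene of vesicle traffic at a gap of 1.62 kb, had 22.0 FPKM with ALA and 14.7 FPKM untreated. Its log2 ratio was 0.55. Axl on the other side of Egln2 is far away, at a gap of 1370 kb, and was at -0.14. None of these neighbours was lower by 1.5-fold and Akap6 was higher, beside 7.16% lower and 5.90% higher among all measured genes. So few neighbours cannot be compared with these shares. Akap6 had only 2.44 FPKM with ALA and 1.18 FPKM untreated, and 12.7% of genes averaging 1 to 5 FPKM were 1.5-fold higher.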
